A study of Homo sapiens with 8 samples.

Results

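Transcripts of 9 genes that sense or act on double-stranded RNA were followed in 2 human lines from lung cancers, H1975 and HCC44. The genes were chosen by name for their role, with earlier results of these data known: RIGI, IFIH1, DHX58, MAVS, TRIM25, TLR3, ZBP1, EIF2AK2 and ADAR. All 9 were found by symbol among the 61228 gene rows of the deposited count tables, and 8 of them were among the 21307 rows that passed the filter on low counts. ZBP1 did not pass.

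RNA sensing starts when a helicase or receptor binds double-stranded RNA from a virus or from the cell itself. RIG-I, encoded by RIGI, and MDA5, encoded by IFIH1, are cytosolic helicases that signal through the mitochondrial adaptor MAVS to switch on type I interferon. Most of the sensors are themselves induced by interferon, so their transcripts rise and fall with interferon signalling in many cell types. The enzyme ADAR edits adenosine to inosine in double-stranded RNA and thereby keeps the cell's own RNA from being sensed.

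H1975 is a lung adenocarcinoma line, and HCC44 is a non-small cell lung cancer line. The labels give the genotype of both lines as WT without naming a gene. Cells of each line were kept in the solvent DMSO or in ACBI1 over 96 hours. The 4 groups held 2 libraries of total RNA apiece. ACBI1 is a degrader that brings the chromatin remodelling proteins SMARCA2, SMARCA4 and PBRM1 to the VHL ubiquitin ligase. Its concentration is stated as 1 mM in the labels, a unit that is uncertain because degraders are used at far lower concentrations. With only these lines, the many genetic differences between H1975 and HCC44 cannot be told apart as sources of a difference in response. Nothing in the labels says whether replicates came from separate cultures, so p-values measure the spread between these libraries, which may be technical.

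Libraries held 62467286 to 70455517 counts in genes. Correlations of log2 CPM within a group were at least 0.996, and those between the groups of a line were at most 0.9836. All 6 epithelial markers examined were above 1 CPM in every group. Their summed level was 5263 CPM in H1975 DMSO, 2569 in H1975 ACBI1, 960 in HCC44 DMSO and 1428 in HCC44 ACBI1, with 4 of the 6 called lower in H1975 and 2 higher and 1 lower in HCC44. Their part in the results on the RNA sensing genes was not tested. The 7 markers of immune and endothelial cells summed to at most 2.41 CPM in any group, and CD3E had no count in any library. Whether ACBI1 removed its target proteins cannot be read from RNA. In bulk RNA, fewer cells that express a gene and less of its RNA per cell cannot be told apart.

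Promoter sequences are shown first because most of the sensors are interferon-induced. Whether these sequences bear on the response to ACBI1 was not tested. A window of 250 bases before to 50 after each start site was available from RefSeq (GRCh38.p14) for 7 of the 9 members, in 9 entries, since ADAR has several starts. Each was searched on both strands for the core of the interferon-stimulated response element, GAAANNGAAA. Capitals mark the matches, the start site is position 1, and the minus strand is printed for genes on it. The windows of 60 bases that hold a response element core are these.

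IFIH1, chr2:162318806-162318865, minus strand: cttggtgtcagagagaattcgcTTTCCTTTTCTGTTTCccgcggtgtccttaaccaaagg
IFIH1, chr2:162318675-162318734, minus strand: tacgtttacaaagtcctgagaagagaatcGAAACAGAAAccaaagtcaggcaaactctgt
TLR3, chr4:186069106-186069165, plus strand: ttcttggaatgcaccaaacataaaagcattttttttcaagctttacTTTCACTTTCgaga
EIF2AK2, chr2:37156971-37157030, minus strand: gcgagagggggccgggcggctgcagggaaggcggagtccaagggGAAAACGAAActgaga

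IFIH1 had 3 matches to the response element core. A pair of them overlapped at positions -159 to -144 on the opposite strand, and the third lay at -21 to -12. EIF2AK2 had its match across the start site, at -6 to 4, and TLR3 had one at -4 to 6. The windows of RIGI, MAVS, ADAR and TRIM25 held no match, which says only that these letters are not in these windows. Among 35116 promoter windows of this length, 3.57% held the core. A match is a description of the sequence and not a site shown to be bound.

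In H1975, the transcripts of 8 of the 9 RNA sensing genes fell with ACBI1, by 1.36-fold for IFIH1 to 3.07-fold for TLR3. In HCC44, TLR3 alone passed the test, and it fell there too. Over all tested genes, 16.7% were called lower and 14.6% higher in H1975, and 17.4% were called lower and 17.5% higher in HCC44. The median log2 fold change of the 8 genes was -0.66 in H1975 and -0.12 in HCC44, beside -0.01 and 0.01 over all tested genes. A gene was called at an adjusted p under 0.05 in the quasi-likelihood test of edgeR, adjusted by Benjamini and Hochberg's method over all 21307 genes. Levels are TMM-scaled CPM, read counts over the scaled library size, given per library or as mean ± SD with n = 2.

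**Figure D1:**
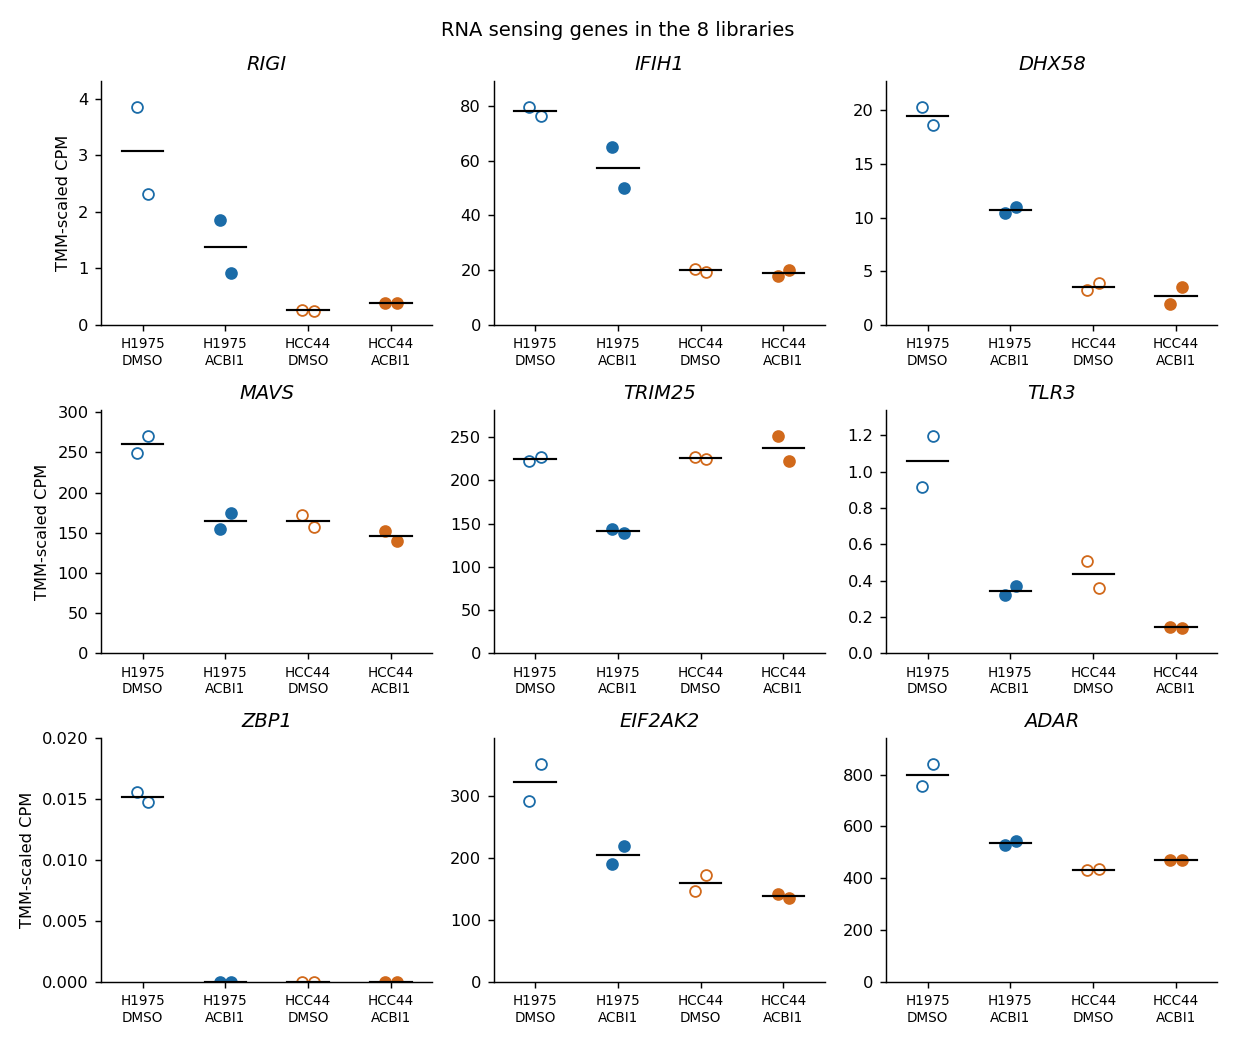
Levels of the 9 genes in the 8 libraries, in TMM-scaled CPM on an axis from 0 in each panel. Points are libraries, replicate 1 to the left of replicate 2, open for DMSO and filled for ACBI1, and bars are group means. In every panel the H1975 ACBI1 points lie below the H1975 DMSO points, which for ZBP1 rests on 0 against 1 count per library, and in HCC44 they do so for MAVS, TLR3 and EIF2AK2. The share of all tested genes whose libraries separate in this way was not determined.

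RIGI encodes the helicase that recognises short RNA with a triphosphate at its 5′ end. Its level in H1975 was 3.85 and 2.31 CPM with DMSO and 1.85 and 0.919 CPM with ACBI1. The replicates were far apart in both groups, replicate 1 being the higher, and the ACBI1 libraries lay below both DMSO libraries. The log2 fold change was -1.15 (SE 0.35, adjusted p 0.0284). In HCC44 the 4 libraries held only 16 to 24 counts each, at 0.270 and 0.251 CPM with DMSO and 0.384 and 0.377 CPM with ACBI1. That change was not called, at 0.54 with a 95% interval of -0.51 to 1.60. The H1975 result was not called on leaving out DMSO replicate 1 (log2 fold change -0.74, adjusted p 0.209) or ACBI1 replicate 2 (-0.71, adjusted p 0.215). It was also not called with H1975 fitted alone (-1.15, adjusted p 0.0640) or with scaling by library totals (-0.94, adjusted p 0.0571).

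The absolute level of RIGI is uncertain. Reads that overlap more than 1 gene are set aside as ambiguous by htseq-count in its default mode, and 4.98 to 5.42% of each table's total was set aside in this way. The RefSeq table lists 2 long non-coding genes whose spans overlap the span of RIGI on chromosome 9 (32455302 to 32526196), while GENCODE release 29 lists none. Whether exons overlap was not examined, and the annotation used for counting is not given in the sources used here. Its gene names differ from those of release 29, which calls RIGI DDX58 and holds 86.2% of the 61228 counted names. Overlaps in release 29 may therefore differ from those in the annotation used. How many RIGI reads were set aside was not tested.

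IFIH1 encodes MDA5, which binds long double-stranded RNA, and lies on chromosome 2 (162267079 to 162318703, GENCODE release 29 on hg38, as for the other positions given here). It was at 79.5 and 76.4 CPM in H1975 DMSO and at 65.0 and 49.9 CPM in H1975 ACBI1, and the groups did not overlap. The log2 fold change was -0.44 (SE 0.13, adjusted p 0.0230). HCC44 had 20.3 and 19.4 CPM with DMSO and 17.8 and 20.1 CPM with ACBI1, and these libraries overlapped. The change in HCC44 was -0.07, with a 95% interval of -0.36 to 0.22. The call in H1975 was lost on leaving out DMSO replicate 1 (-0.42, adjusted p 0.0922), DMSO replicate 2 (-0.42, adjusted p 0.0853) or ACBI1 replicate 2 (-0.24, adjusted p 0.285). It was also lost with upper-quartile factors (-0.37, adjusted p 0.0550) and with scaling by library totals (-0.24, adjusted p 0.181), a scaling under which the median of all genes in H1975 was 0.18.

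DHX58 encodes LGP2, a relative of RIG-I and MDA5 without the signalling domains, which modulates both. It lies on chromosome 17 (42101404 to 42112733). Its level in H1975 was 20.3 and 18.7 CPM with DMSO against 10.4 and 10.97 CPM with ACBI1. All libraries of a group lay close together, and the log2 fold change was -0.87 (SE 0.23, adjusted p 0.0149). In HCC44 it was 3.26 and 3.89 CPM with DMSO, and 1.90 and 3.54 CPM with ACBI1, where replicate 1 was low and replicate 2 lay among the DMSO values. The HCC44 change of -0.39 was not called (95% interval -0.94 to 0.16). It was called without ACBI1 replicate 2, at -0.91 (adjusted p 0.00995), and was -0.01 without ACBI1 replicate 1. The call in H1975 was lost without DMSO replicate 1 (-0.81), ACBI1 replicate 1 (-0.79) or ACBI1 replicate 2 (-0.88), with adjusted p-values of 0.0655, 0.0723 and 0.0561.

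MAVS, on chromosome 20 (3846799 to 3876123), encodes the adaptor that RIG-I and MDA5 both need. In H1975 it was at 248.9 and 271 CPM with DMSO and at 155 and 174 CPM with ACBI1, a log2 fold change of -0.66 (SE 0.10, adjusted p 0.000648). In HCC44 it was at 172 and 157 CPM with DMSO and at 152 and 140 CPM with ACBI1. The HCC44 libraries did not overlap, but the change of -0.17 was not called (adjusted p 0.190). The level in H1975 ACBI1, 164 ± 14 CPM, was within 1 SD of that in HCC44 DMSO, 164 ± 10 CPM.

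TRIM25 encodes a ubiquitin ligase described as an activator of RIG-I. It was at 222 and 227 CPM in H1975 DMSO and at 144 and 139 CPM in H1975 ACBI1. The log2 fold change was -0.67 (SE 0.09, adjusted p 0.000320), and both groups were tight. HCC44 had 227 and 224 CPM with DMSO and 252 and 222 CPM with ACBI1, with overlapping libraries and a change of 0.07 (95% interval -0.12 to 0.26). TRIM25 on chromosome 17 (56836387 to 56914080) overlaps 6 other genes in GENCODE release 29, among them the coding genes DGKE and C17orf67, while RefSeq gives it a shorter span (56887909 to 56914049). Its counts are uncertain without the strand setting and the annotation used.

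TLR3, on chromosome 4 (186069152 to 186088069), encodes the endosomal receptor for double-stranded RNA, which signals through the adaptor TICAM1 and not through MAVS. It was a rare transcript in both lines. In H1975 it had 59 and 81 counts with DMSO and 24 and 26 with ACBI1, or 0.916 and 1.198 CPM against 0.319 and 0.368 CPM. The log2 fold change was -1.62 (SE 0.33, adjusted p 0.00414). In HCC44 it had 32 and 23 counts with DMSO and 9 in each ACBI1 library, or 0.509 and 0.360 CPM against 0.144 and 0.142 CPM. That fall was -1.59 (SE 0.41, adjusted p 0.0110). The groups did not overlap in either line. From the summed counts, the ratio of DMSO to ACBI1 was 3.10 in H1975 (exact 95% interval 2.23 to 4.37) and 3.04 in HCC44 (1.76 to 5.50), intervals that cover counting error only. The HCC44 call was lost without DMSO replicate 1 (-1.33, adjusted p 0.0782) or ACBI1 replicate 2 (-1.58, adjusted p 0.0562).

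ZBP1, on chromosome 20 (57603846 to 57620576), encodes a sensor of left-handed double-stranded nucleic acid that can start necroptosis. It had 1 count in each H1975 DMSO library and none in the other 6 libraries. A floor of 3 counts over a group corresponds to 0.0206 to 0.0238 CPM, and no group exceeded it. No change in ZBP1 was detectable at this depth.

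EIF2AK2 encodes PKR, the kinase that halts translation by phosphorylating eIF2 when it binds double-stranded RNA. In H1975 it was at 292 and 352 CPM with DMSO and at 190 and 219 CPM with ACBI1. The replicates of each group were spread, replicate 2 being the higher, and the groups did not overlap. The log2 fold change was -0.65 (SE 0.12, adjusted p 0.00213). HCC44 had 147 and 173 CPM with DMSO and 142 and 136 CPM with ACBI1, a change of -0.20 that was not called (95% interval -0.46 to 0.06) although the ACBI1 libraries lay below both DMSO libraries. EIF2AK2 on chromosome 2 (37099210 to 37157065) overlaps GPATCH11, a coding gene on the opposite strand, and a pseudogene. Its counts, too, are uncertain without the strand setting and the annotation used.

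ADAR, on chromosome 1 (154582057 to 154628013), was the most abundant of the 9 transcripts. In H1975 it was at 756 and 841 CPM with DMSO and at 528 and 545 CPM with ACBI1. The log2 fold change was -0.57 (SE 0.08, adjusted p 0.000656). In HCC44 it was at 430 and 435 CPM with DMSO and at 469 CPM in both ACBI1 libraries. The HCC44 libraries with ACBI1 were higher than those with DMSO, but the change of 0.12 was not called (95% interval -0.07 to 0.30). Counts per gene do not separate the interferon-induced long form of ADAR from its constitutive short form. RefSeq lists 1 long non-coding gene whose span overlaps that of ADAR, and its bearing on the counts was not tested.

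**Figure D2:**
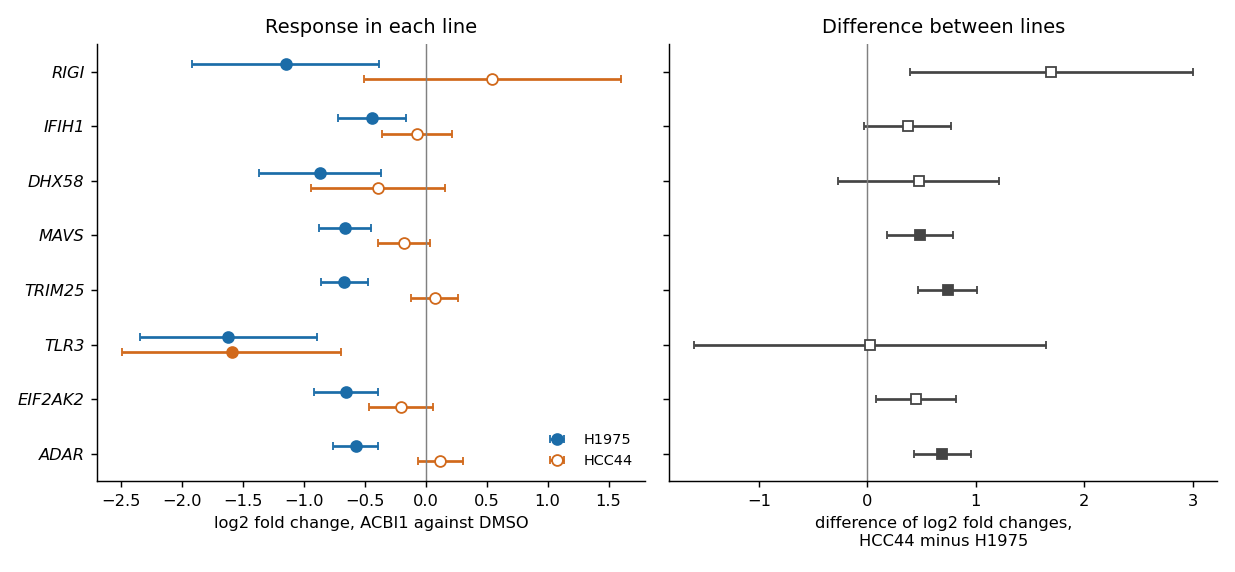
Left, log2 fold change with ACBI1 for the 8 tested genes in H1975 and HCC44, with 95% intervals and filled symbols for called genes. Right, the response in HCC44 minus that in H1975 with its 95% interval, filled where called, as for MAVS at 0.49, TRIM25 at 0.74 and ADAR at 0.69. The interval of TLR3 on the right is approximate and may be too wide.

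A test of the difference itself asked whether the lines responded differently. TRIM25, ADAR and MAVS responded less negatively in HCC44, by 0.74 (SE 0.12, adjusted p 0.00258), 0.69 (SE 0.12, adjusted p 0.00325) and 0.49 (SE 0.14, adjusted p 0.0312) on the log2 scale. Over all tested genes, the difference was called in the positive direction for 10.2% and in the negative direction for 8.4%. The difference was not called for EIF2AK2 (0.45, adjusted p 0.0854), RIGI (1.69, adjusted p 0.0704), IFIH1 (0.37, adjusted p 0.191) or DHX58 (0.48, adjusted p 0.372). Their 95% intervals before adjustment were 0.08 to 0.82, 0.39 to 2.997, -0.03 to 0.77 and -0.27 to 1.22. For TLR3 the difference was 0.03, with an interval of -1.60 to 1.65. An SE derived from the F statistic is unstable for a difference this near 0 in a gene of low counts. The TLR3 interval is therefore approximate and may be too wide. The low counts still leave room for a difference in either direction.

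The calls for TRIM25 and ADAR were made under all 17 alternatives run, and that for MAVS under 7 of 17. MAVS was lost with DESeq2 (0.45, adjusted p 0.0528), RLE factors (0.45, adjusted p 0.0576) and library totals (0.37, adjusted p 0.0793), and at the threshold of 0.01. It was also lost on leaving out any 1 of 6 libraries, at 0.37 without H1975 DMSO replicate 2 or H1975 ACBI1 replicate 1, 0.55 without H1975 ACBI1 replicate 2 or HCC44 DMSO replicate 1, and 0.43 without HCC44 DMSO replicate 2 or HCC44 ACBI1 replicate 1. The difference for RIGI was called in 4 of 17 alternatives and that for EIF2AK2 in 3 of 17. With no filter on low counts both were called, RIGI at 1.70 (adjusted p 0.00961) and EIF2AK2 at 0.46 (adjusted p 0.0142). RIGI was also called without H1975 DMSO replicate 2 (1.97, adjusted p 0.0401) or H1975 ACBI1 replicate 1 (2.25, adjusted p 0.0185), and EIF2AK2 without H1975 DMSO replicate 1 (0.58, adjusted p 0.0434). The remaining alternative for each was the replicate block. DHX58 was called without HCC44 ACBI1 replicate 1 (0.86, adjusted p 0.0310). The DHX58 difference was -0.04 without HCC44 ACBI1 replicate 2.

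The DMSO cultures of the lines also differed in level. RNA of 7 of the 9 genes was lower in HCC44 DMSO than in H1975 DMSO, and TRIM25 alone among the tested genes was not called. Over all tested genes, 36.4% were called lower and 31.6% higher in HCC44 DMSO. RIGI was 11.7-fold lower, with its level uncertain as described, DHX58 5.45-fold, IFIH1 3.92-fold and TLR3 2.43-fold lower. EIF2AK2 was 2.01-fold, ADAR 1.85-fold and MAVS 1.58-fold lower. The adjusted p-values of these 7 genes ranged from 2.45e-07 for IFIH1 to 0.00474 for TLR3. TRIM25 was at 225 ± 3.0 CPM in H1975 and 225 ± 1.9 CPM in HCC44, with a 95% interval of -0.18 to 0.20 for the log2 difference. These comparisons share the DMSO libraries with the tests of ACBI1, so the levels and the responses are not independent of each other.

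With ACBI1 the H1975 levels of the helicases stayed above those of HCC44. IFIH1 was at 57.5 ± 11 CPM in H1975 ACBI1 and 19.9 ± 0.68 CPM in HCC44 DMSO, and DHX58 at 10.7 ± 0.39 and 3.57 ± 0.44 CPM. TLR3 was at 0.343 ± 0.034 CPM in H1975 ACBI1 and 0.434 ± 0.10 CPM in HCC44 DMSO, and the libraries of these groups overlapped. Levels in H1975 ACBI1 were not tested against those in HCC44. TRIM25 was lower in H1975 ACBI1, at 141 ± 3.6 CPM, than in any HCC44 library. The 4 groups thus ranked differently from gene to gene, with H1975 DMSO highest for every tested member except TRIM25. How many of all tested genes have H1975 DMSO highest was not determined.

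**Figure D3:**
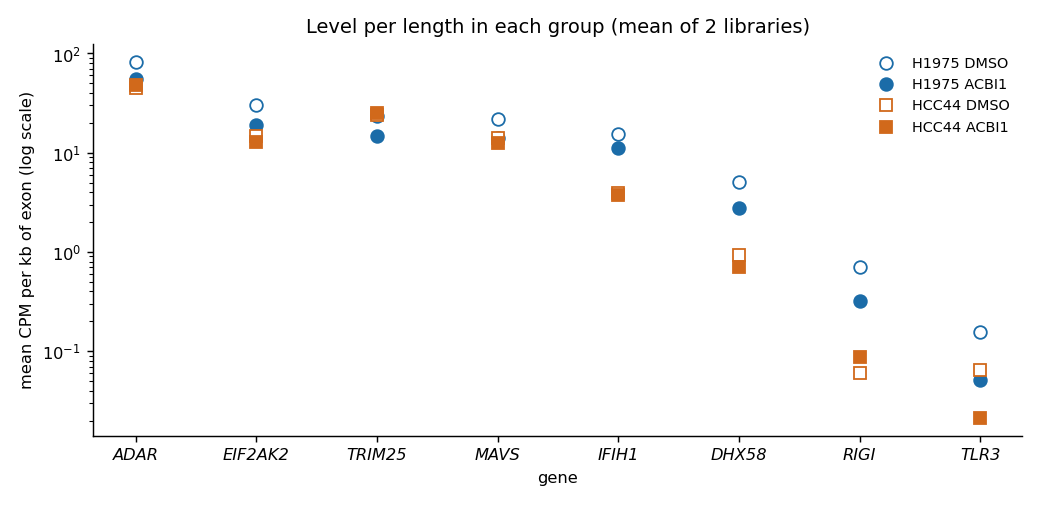
Mean CPM per kb of exon (log scale) of the 8 tested genes in the 4 groups, ordered by H1975 DMSO. ADAR is highest in all groups, and TLR3 and RIGI are lowest.

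Compared per length of exon in GENCODE release 29, ADAR was at 82.4 CPM per kb in H1975 DMSO, followed by EIF2AK2 at 29.96, TRIM25 at 23.6, MAVS at 22.1, IFIH1 at 15.3 and DHX58 at 5.07. RIGI was at 0.707 and TLR3 at 0.157 CPM per kb. No ranges of neighbouring genes overlapped in that group, though MAVS, at 21.15 to 23.0, came close to TRIM25, at 23.4 to 23.9. In HCC44 DMSO the order was ADAR at 44.6, TRIM25 at 23.7, EIF2AK2 at 14.9, MAVS at 13.97, IFIH1 at 3.89, DHX58 at 0.9295, TLR3 at 0.0646 and RIGI at 0.0598 CPM per kb. There the libraries of EIF2AK2 overlapped those of MAVS, and those of TLR3 overlapped those of RIGI. The length is that of all annotated exons together, which overstates the length of a single transcript. Lengths in the annotation used for counting may differ from those of release 29.

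Among the profiles of the 8 genes over the 8 libraries, those of MAVS and ADAR were closest. The root mean square difference of log2(CPM + 0.5), centred per gene, was 0.14 for this pair, followed by 0.18 for MAVS with TLR3 and 0.18 for ADAR with EIF2AK2. It was 0.27 between RIGI and IFIH1, 0.31 between IFIH1 and DHX58, and largest at 1.26 between DHX58 and TRIM25. The pseudocount compresses the rare transcripts RIGI and TLR3 on this scale. Among 14775 genes averaging 1 CPM or more over the libraries, the profiles nearest to IFIH1 were those of H2BP1, RPUSD1 and CHROMR (0.09 to 0.11). Nearest to RIGI were MICALL2, CAPS and GRB7 (0.18 to 0.20), and nearest to DHX58 were ACAA1, ENSG00000267073 and PITPNM1 (0.12 to 0.18). MAVS was followed most closely by ACVR1, CD81 and RELCH, ADAR by TUG1, TMCC1 and CFL1, EIF2AK2 by TBC1D19, CRBN and LAMP2, and TRIM25 by SFXN5, SEPTIN2 and EIF5, at 0.06 to 0.08. For TLR3 these were UBQLN2, MCC and PEA15 (0.10 to 0.11). The 8 libraries form 4 groups, so closeness here rests mainly on 4 group levels.

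Of 89 further genes of these pathways, 87 were tested. Their lists, like the members, were chosen with earlier results of these data known, so the shares called are descriptive. In H1975, 42 (48.3%) were called lower and 7 (8.05%) higher, with a median log2 fold change of -0.28, beside 16.7% lower and 14.6% higher over all tested genes. In HCC44, 28 (32.2%) were called lower and 11 (12.6%) higher, with a median of -0.13, beside 17.4% and 17.5% over all tested genes. The difference between lines was called for 26 of them, 19 (21.8%) in the positive and 7 (8.05%) in the negative direction, beside 10.2% and 8.4% over all tested genes. Without H1975 ACBI1 replicate 2, 25 were called lower and 3 higher in H1975, and 3 were called higher there without H1975 DMSO replicate 1. With library totals, 26 were called lower and 18 higher in H1975. In HCC44, 17 were called lower and 5 higher without DMSO replicate 2, 7 higher without DMSO replicate 1, and 18 lower without ACBI1 replicate 2. The difference was called in the positive direction for 12, 11, 10 and 9 genes without H1975 DMSO replicate 1, H1975 DMSO replicate 2, H1975 ACBI1 replicate 2 and HCC44 DMSO replicate 1, and in the negative direction for 1 gene without HCC44 DMSO replicate 1 and for 3 genes without H1975 DMSO replicate 1, H1975 ACBI1 replicate 2, HCC44 DMSO replicate 2 or HCC44 ACBI1 replicate 2. Of the 25 genes named by rule in the next paragraphs, 21 have a span that overlaps another gene in GENCODE release 29, often an antisense gene. Whether exons overlap was not examined, so how far their counts are affected is uncertain.

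**Figure D4:**
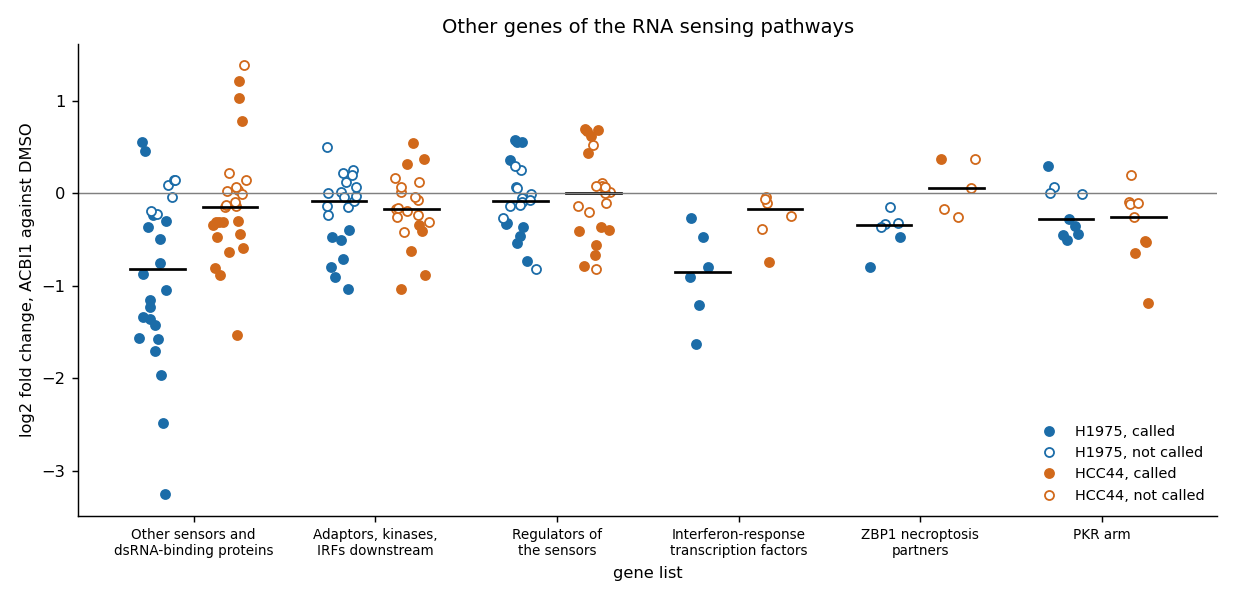
Log2 fold change with ACBI1 of each tested gene in 6 lists of the RNA sensing pathways, H1975 in blue and HCC44 in orange, filled where called, with bars at list medians. The lowest points are OAS2 and OAS1 in H1975, and RIPK3 is left out for HCC44 because it had no counts in HCC44 DMSO.

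Among other RNA sensors and double-stranded RNA-binding proteins, 18 of 26 tested genes (69.2%) were called lower and 2 (7.69%) higher in H1975 (median -0.82), where 16.7% and 14.6% of all tested genes were. The number called higher was 0 without H1975 DMSO replicate 1 or ACBI1 replicate 2, 1 without DMSO replicate 2 and 5 with library totals. OAS1, OAS2 and OAS3 are synthetases that make the messenger 2-5A on binding double-stranded RNA. OAS2 fell from 76.7 ± 1.5 to 8.04 ± 2.9 CPM in H1975 (log2 fold change -3.25, SE 0.25, adjusted p 4.27e-05), and OAS1 from 45.7 ± 2.5 to 8.14 ± 3.0 CPM (-2.49, SE 0.22, adjusted p 3.94e-05). IFIT3, which supports the binding of foreign RNA by IFIT1, fell from 130 ± 8.1 to 33.5 ± 12 CPM (-1.96, adjusted p 0.000182). Its change in HCC44 was -0.88 (adjusted p 0.0113), not called without DMSO replicate 2 (-0.85) or ACBI1 replicate 1 (-0.76).

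In HCC44, 12 genes of this list (46.2%) were called lower and 3 (11.5%) higher (median -0.15), where 17.4% and 17.5% of all tested genes were. Of this list, 7, 5 and 6 were called lower without DMSO replicate 1, DMSO replicate 2 and ACBI1 replicate 2, and 7 with library totals. The number called higher was 1 without DMSO replicate 1 or DMSO replicate 2. The 3 that rose were OAS3, from 31.3 ± 7.1 to 72.7 ± 10 CPM (1.21, adjusted p 0.000363), IFIT1, from 0.663 ± 0.0066 to 1.35 ± 0.56 CPM (1.03, adjusted p 0.0319), and OAS1, from 5.07 ± 0.41 to 8.70 ± 0.65 CPM (0.78, adjusted p 0.0170). All 3 fell in H1975, and the difference between lines was 2.37 for OAS3 (adjusted p 0.000222), 2.61 for IFIT1 (adjusted p 0.00197) and 3.27 for OAS1 (adjusted p 0.000133). The rises of OAS1 and IFIT1 in HCC44 were not called without DMSO replicate 1 (0.86 and 1.03) or DMSO replicate 2 (0.70 and 1.02), nor OAS1 without ACBI1 replicate 1 (0.70) or IFIT1 without ACBI1 replicate 2 (0.53), while all 3 differences between lines were called in each of the 17 alternatives. NLRP1, an inflammasome sensor, fell in both lines, from 27.8 ± 1.6 to 11.8 ± 0.012 CPM in H1975 and from 40.2 ± 1.9 to 13.9 ± 0.55 CPM in HCC44. TLR7 and TLR8, receptors for single-stranded RNA, did not pass the filter.

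Transcription factors of the interferon response fell in H1975, where all 6 tested were called lower (median -0.85), beside 16.7% of all tested genes. In HCC44 1 of 6 was called lower (median -0.17), beside 17.4% of all tested genes, and 0 without HCC44 ACBI1 replicate 2. STAT2, which binds the response element together with IRF9, fell in H1975 from 139 ± 29 to 45.0 ± 7.8 CPM (-1.63, adjusted p 0.000188). Its fall in HCC44 was from 73.0 ± 0.95 to 43.5 ± 7.6 CPM (-0.75, adjusted p 0.00813). IRF9, its DNA-binding partner, fell in H1975 from 9.26 ± 4.3 to 3.99 ± 0.92 CPM (-1.21, adjusted p 0.0130), and IRF1 from 41.8 ± 3.8 to 22.3 ± 0.33 CPM (adjusted p 0.000164). In HCC44 IRF9 was at 2.93 ± 0.0041 and 2.24 ± 0.48 CPM and IRF1 at 47.4 ± 0.22 and 40.0 ± 2.5 CPM, neither of them called. Without ACBI1 replicate 2, 3 of the 6 were called in H1975, and with library totals 4. IRF9 was not called without DMSO replicate 1 (-0.65, adjusted p 0.130) or ACBI1 replicate 2 (-0.97, adjusted p 0.0855), nor STAT2 in HCC44 without ACBI1 replicate 2 (-0.58, adjusted p 0.0634).

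Of 21 adaptors, kinases and regulatory factors downstream of the sensors, 7 (33.3%) were called lower and 0 higher in H1975 (median -0.08), beside 16.7% and 14.6% of all tested genes. Library totals turned this balance, with 3 called lower and 5 higher, and 4 were called lower and 1 higher without ACBI1 replicate 2. In HCC44, 5 (23.8%) were called lower and 3 (14.3%) higher (median -0.18), beside 17.4% and 17.5% of all tested genes. The number called lower there was 8 without ACBI1 replicate 1 and 3 without DMSO replicate 2 or ACBI1 replicate 2, and the number higher was 1 without DMSO replicate 2. IRF7, which amplifies interferon production, fell in both lines, from 79.0 ± 4.5 to 38.5 ± 0.87 CPM in H1975 (-1.04) and from 25.3 ± 0.84 to 16.3 ± 2.5 CPM in HCC44 (-0.63). IKBKE, a kinase for IRF3, fell from 12.7 ± 0.77 to 6.79 ± 0.27 CPM in H1975 (-0.91) and from 10.1 ± 0.010 to 4.92 ± 1.8 CPM in HCC44 (-1.04). FADD, an adaptor for caspase-8, fell in H1975 (-0.80, adjusted p 0.000241), and its change in HCC44 was -0.26 (adjusted p 0.0660). IKBKG, the regulatory subunit of the IkB kinase, fell in both lines, by 0.88 on the log2 scale in HCC44 (adjusted p 0.00295) and with a change of -0.71 in H1975 (adjusted p 0.0115). The H1975 call for IKBKG was lost with library totals (-0.50) and without DMSO replicate 1 (-0.58) or ACBI1 replicate 2 (-0.54). IKBKG has a near-identical pseudogene copy, so its counts are uncertain. TICAM1, the adaptor of TLR3, is given after its values were seen: levels of 54.6 ± 4.5 CPM with DMSO and 62.4 ± 5.5 CPM with ACBI1 in H1975 were not called different, and it rose from 36.1 ± 1.3 to 52.5 ± 1.8 CPM in HCC44 (0.54, adjusted p 0.00231).

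Of 22 regulators that modify the sensors, 4 (18.2%) were called higher and 6 (27.3%) lower in H1975 (median -0.08), beside 14.6% and 16.7% of all tested genes. With library totals 7 were called higher and 2 lower. The number higher was 2 without DMSO replicate 1 or ACBI1 replicate 2, and the number lower was 3, 3 and 2 without DMSO replicate 2, ACBI1 replicate 1 and ACBI1 replicate 2. In HCC44, 5 (22.7%) were called higher and 6 (27.3%) lower (median 0.01), beside 17.5% and 17.4% of all tested genes, with 3 higher without DMSO replicate 2. RNF135, also named Riplet, the ubiquitin ligase needed for RIG-I activation, rose from 26.4 ± 1.4 to 42.7 ± 1.5 CPM in HCC44 (0.70, adjusted p 0.00101), while its change of 0.36 in H1975 (adjusted p 0.0376) was not called in 6 of 18 alternatives. TRIM65, a ubiquitin ligase for MDA5, rose from 43.8 ± 0.79 to 65.1 ± 1.9 CPM in H1975 (0.57, adjusted p 0.00292). Its rise in HCC44 was 0.62 (adjusted p 0.00134). TKFC, an inhibitor of MDA5, rose in H1975 from 61.3 ± 2.7 to 90.2 ± 14 CPM (0.56, adjusted p 0.0169), but was not called without DMSO replicate 1 (0.51) or ACBI1 replicate 2 (0.42). Its rise in HCC44 was 0.68 (adjusted p 0.00627), a call lost without DMSO replicate 2 (0.63). CYLD, a deubiquitinase that restrains RIG-I, fell in H1975 from 71.4 ± 9.6 to 43.0 ± 3.1 CPM (-0.73, adjusted p 0.00146), and its change in HCC44 was -0.66 (adjusted p 0.00184). RIOK3 fell from 194 ± 11 to 112 ± 2.0 CPM in HCC44 (-0.79), and its change in H1975 was -0.54 (adjusted p 0.00104). TRIM14, which binds MAVS, rose from 54.3 ± 2.6 to 87.4 ± 6.5 CPM in HCC44 (0.69), with a change of 0.06 in H1975 (adjusted p 0.683).

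Partners of ZBP1 in necroptosis were called lower for 2 of 6 genes in H1975 (median -0.35), with 16.7% of all tested genes called lower there, and for 1 with library totals or without ACBI1 replicate 2. In HCC44, 1 of 6 was called higher, with 17.5% of all tested genes called higher there, and the median was 0.05 without RIPK3. This number was 2 with library totals and 0 without DMSO replicate 2 or ACBI1 replicate 1. CASP8, the protease that restrains necroptosis, fell in H1975 from 56.2 ± 2.4 to 40.4 ± 1.8 CPM (-0.48, adjusted p 0.00430), as did FADD, and its change in HCC44 was -0.18 (adjusted p 0.195). FADD is also in the list of adaptors, so its call is counted in both lists. CASP8 was not called without ACBI1 replicate 2 (-0.41, adjusted p 0.0650). RIPK1 rose in HCC44 from 58.7 ± 2.8 to 75.8 ± 4.9 CPM (0.37, adjusted p 0.0112), but was not called without DMSO replicate 2 (0.32) or ACBI1 replicate 1 (0.30). Its change in H1975 was -0.15 (adjusted p 0.260). RIPK3, the kinase that ZBP1 engages, is named after its values were seen: its mean was at most 0.146 CPM in any group.

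In the PKR arm, 5 of 9 genes (55.6%) were called lower and 1 (11.1%) higher in H1975 (median -0.28), beside 16.7% and 14.6% of all tested genes. The number lower was 2 with upper-quartile factors or library totals, 3 with RLE factors or DESeq2, and 2 without DMSO replicate 2 or either ACBI1 replicate. The 1 call higher was lost without DMSO replicate 1, either ACBI1 replicate or either HCC44 DMSO replicate. In HCC44, 4 (44.4%) were called lower and 0 higher (median -0.26), beside 17.4% and 17.5% of all tested genes, with 1 higher with upper-quartile factors or library totals. EIF2AK3, the eIF2 kinase PERK of the endoplasmic reticulum, had a log2 fold change of -0.50 (adjusted p 0.00244) in H1975 and -0.52 (adjusted p 0.00134) in HCC44, and the difference was -0.02 (95% interval -0.31 to 0.27). PPP1R15A, the phosphatase subunit GADD34 that reverses eIF2 phosphorylation, fell in H1975 from 306 ± 62 to 223 ± 22 CPM (-0.46, adjusted p 0.0441), a call lost in 10 of 18 alternatives, over all of which it ranged from -0.65 to -0.18. In HCC44 it fell from 661 ± 110 to 291 ± 16 CPM (-1.18, adjusted p 0.000291). The difference between lines was -0.73 (adjusted p 0.0407) and was not called in 6 of 17 alternatives. PPP1R15B, the constitutive counterpart, fell in H1975 (-0.45, adjusted p 0.00320), and its change in HCC44 was -0.11 (adjusted p 0.360). DNAJC3, an inhibitor of PKR and PERK, fell in HCC44 (-0.64, adjusted p 0.000730). Its change in H1975 was -0.35 (adjusted p 0.0236), a call lost in 8 of 18 alternatives.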

How the data were processed

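The deposited tables hold counts of reads per gene name, 1 table per library, with 5 summary rows of htseq-count (14.3 to 15.8% of each table's total) that were left out. The submitters' processing notes name TopHat2 2.1.1, HTSeq 0.11.0 and hg38 without roles. The strand setting and annotation are not given in the sources used here. The low-count filter was edgeR's filterByExpr. edgeR 4.0.16 in R 4.3.3, with TMM factors and robust dispersion, fitted 1 mean per group to all 8 libraries, leaving 4 residual degrees of freedom. Standard errors were derived from the F statistic. The procedure was also run on counts simulated from its own fitted model, in which genes with a mean above 1 CPM were changed. That run shares the assumptions of the model and does not cover rarer transcripts. Alternatives were DESeq2 1.42.0, other scalings and filters, lines fitted alone, non-robust dispersion, a replicate block, a threshold of 0.01 and each library left out. They were also applied to the pathway genes, a choice made after seeing the data. All members are named. From each list, up to 3 called genes with the largest change per line and a group mean of at least 1 CPM are named, and 3 nearest profiles per member. Members and lists were chosen with earlier results of these data known. No replicates matched within sampling noise (chi-square over its degrees of freedom 21.7 to 43.5). Figures were drawn with matplotlib 3.10.9.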

Additional observations from a re-analysis of the deposited data

Results flagged for a closer look

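For 3 of the RNA sensing genes, a test of the difference itself found unequal responses of H1975 and HCC44 to ACBI1. The log2 difference, HCC44 minus H1975, was 0.74 for TRIM25, 0.69 for ADAR and 0.49 for MAVS, each called in H1975 and not in HCC44. Over all tested genes, the difference was called in the positive direction for 10.2% and in the negative direction for 8.4%. The differences for TRIM25 and ADAR were called under all 17 alternatives, and that for MAVS under only 7 of 17.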

How the results depend on the processing

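In H1975 all 8 tested members kept a negative sign under every alternative run. At the threshold of 0.01, 5 members and 3691 genes were called there, against 8 and 6663 at 0.05. With each library left out in turn, 5 to 8 members and 3688 to 7161 genes were called, with 4342 genes without H1975 DMSO replicate 1 and 3688 without H1975 ACBI1 replicate 2, 5 members in either case. In HCC44, 4681 genes and 0 members were called at 0.01, and 4947 to 7342 genes and 0 to 1 members with a library left out, the lowest number of genes without DMSO replicate 2 and no member without DMSO replicate 1. No member was called there with the filter of 1 CPM in 2 libraries, because TLR3 did not pass it.

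The replicate block gave 2 called members in HCC44, TLR3 and MAVS, and for the difference between lines 5 members and 6358 genes, against 3 and 3967 without it, the further members being RIGI (1.72, adjusted p 0.00704) and EIF2AK2 (0.45, adjusted p 0.0124). It kept 8 members called in H1975 and 7 between the DMSO cultures. Replicate 1 minus replicate 2 correlated across genes between the groups of a line at 0.5894 in H1975 and 0.2052 in HCC44, but the labels name no shared batch. The difference between lines also gave 5 members with no filter, 1654 genes at 0.01 and 2343 to 4133 genes with a library left out, the lowest being 2343, 2481 and 2598 without HCC44 DMSO replicate 1, H1975 ACBI1 replicate 2 and HCC44 DMSO replicate 2.

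Signs changed among members only for values not called in the analysis reported. IFIH1 in HCC44 was 0.0211 with library totals and -0.161 to 0.0199 with a library left out, and TRIM25 in HCC44 was -0.0162 to 0.160. The TLR3 difference was -0.00704 with RLE factors, -0.0852 with library totals, -0.0158 with DESeq2 and -0.231 to 0.292 with a library left out, and the DHX58 difference was -0.0386 to 0.857. The DMSO difference of TRIM25 was -0.0647 with upper-quartile factors, -0.110 with library totals, -0.00899 with no filter, -0.00828 with 1 CPM in 2 libraries and -0.0163 to 0.0706 with a library left out. Library totals moved the share of rises among all calls from 46.6 to 72.3% in H1975, from 50.01 to 60.5% in HCC44, and from 54.9 to 40.5% for the difference. The causes of these changes were not tested, apart from the filter on TLR3. Low counts limit RIGI in HCC44, TLR3 in both lines and ZBP1 throughout.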
